A study of Mus musculus with 5 samples.

Results

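The 32 genes described here carry glucose into the cell, break it down by glycolysis, handle the lactate and pyruvate that result, and run the pentose phosphate pathway. They were listed by name, with no threshold on a value, and were found among the 55147 gene symbols of a table of transcript levels from mouse ES cells. Their groups are 2 glucose carriers, 16 genes of glycolysis, 7 of lactate and pyruvate handling and 7 of the pentose phosphate pathway. All 32 passed the filter on low values, as did 12518 symbols in all. Levels in 3 samples of wild type cells (WT) were compared with those in 2 samples of C3G null cells (C3G KO). WT samples are E14Tg2a, an established line of mouse embryonic stem cells, and the C3G KO samples come from the same line. In the knockout, a stretch of exons near the 5′ end of the C3G gene, Rapgef1, was replaced by a puromycin resistance cassette with Cas9 and a pair of guide RNAs, and resistant colonies were grown as clones. Both groups were kept on gelatin in medium with fetal calf serum and the cytokine LIF. Which clone gave each C3G KO sample is not stated, and clone and genotype cannot be told apart here. The study calls the samples of a group independent, while the labels do not say whether they came from separate cultures, and p-values measure the spread between these samples, which may be technical.

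Glycolysis turns glucose into pyruvate in the cytosol and yields ATP and NADH. Cells that export the carbon as lactate regenerate the NAD+ that the pathway needs, while pyruvate dehydrogenase sends it into the mitochondrion as acetyl-CoA. The pentose phosphate pathway branches off after hexokinase and supplies NADPH and ribose phosphate. Mouse ES cells in serum and LIF divide fast and are known for high glycolytic flux together with active mitochondria.

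Values are in TPM, in which the reads of a transcript are divided by its length and by the total of the sample, so levels can be set side by side between genes. Read counts are not part of the table, so depth is unknown and the number of samples sets the precision. Small and ribosomal RNAs took 62.9% to 67.2% of the TPM in WT and 69.6% to 77.8% in C3G KO, which leaves less of the total for other genes in C3G KO. In TPM as deposited, the tested genes had a median log2 fold change of -0.55, and scaling to protein-coding TPM alone left it at -0.17. The main values below were scaled by the median of ratios, which brought this median to 0.0052, and are called scaled TPM. A direction given for a gene is thus relative to the median gene, and the value from TPM as deposited stands beside it. The test was limma on log2(TPM + 1), two-sided and adjusted over all tested genes after Benjamini and Hochberg, and an adjusted p under 0.05 is a call. On this scale the change of a gene near the filter comes out too small.

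Rapgef1 itself had 8.66, 8.45 and 8.73 scaled TPM in WT 1 to 3 and 6.34 and 6.13 scaled TPM in C3G KO 1 and 2. Both C3G KO samples lay below all WT samples. The log2 fold change was -0.41 (adjusted p = 0.00444, limma) after scaling and -1.02 with TPM as deposited, but -0.11 (adjusted p = 0.242, limma) once length and GC content were corrected for. The sum runs over the whole gene, of which the cassette replaces only some exons, so it checks the labels only in part. All 12 ES cell markers were expressed, with a summed level of 1726 to 2143 scaled TPM in WT and 2639 to 2944 in C3G KO. Markers of other cell types were far lower. Fibroblast markers summed to 4.58 to 5.53 scaled TPM in WT and 2.0 to 2.15 in C3G KO, with 6 of 9 below 1 TPM in every sample, Col1a2, Col3a1 and Dcn among them. Primitive endoderm markers summed to 51.9 to 55.5 in WT and 43.8 to 47.4 in C3G KO, with 5 of 10 below 1 TPM in every sample, Sox17, Gata6 and Gata4 among them. Most of this sum in WT was Sparc, with 29.9, 31.6 and 33.7 scaled TPM in WT and 19.1 and 17.5 in C3G KO. Cubn went the other way, with 0.749, 0.730 and 0.833 in WT and 3.23 and 3.53 in C3G KO. Trophectoderm markers summed to 16.8 to 19.1 in WT and 10.4 to 11.5 in C3G KO, with 3 of 7 below 1 TPM in every sample. These sums move with the genotype, and their part in the results below was not tested. In bulk RNA, fewer cells of a type and less RNA per cell cannot be told apart.

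Genes of glycolysis and lactate production were mostly higher in C3G KO relative to the median gene, while both glucose carriers were lower. Of the 32 genes, 16 rose and 2 fell, beside 14.1% and 16.6% of all tested genes. The median log2 fold change of the 32 genes was 0.34 against 0.0052 for all genes. Both C3G KO samples lay above all WT samples for 21 of them and below for 3, where 29.5% and 29.3% of all tested genes did so. TPM as deposited gave 1 gene higher (Ldhb) and 7 lower, beside 1.45% and 56.8% of all genes, and a median of -0.34. That median still lay 0.21 above the one of all genes, and the distance was 0.33 after scaling. Scaling divides all genes of a sample by the same factor, so these distances differ only through the 1 added before the log. Of the 16 that rose, 10 kept the call whichever sample was left out, namely Gpi1, Pfkm, Pfkp, Aldoc, Pgk1, Pkm, Ldha, Ldhb, Slc16a3 and Tkt. Together the 32 genes took 1.47% to 1.58% of protein-coding TPM in WT and 1.84% to 1.96% in C3G KO.

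Other abundant genes were also higher on balance after scaling. Among 511 tested genes outside the pathways with a WT mean of at least 100 TPM, the median log2 fold change was 0.35 (-0.35 with TPM as deposited) and 28.0% were higher. The 10 pathway genes at that level had a median of 0.57, and 7 of them were higher. Across all tested genes the log2 fold change also fell with transcript length (Spearman's rho = -0.31, across genes, which are not independent replicates). Median transcript length was 1989 bases for the 32 genes and 2180 bases for all tested genes, and median GC content was 53.5% and 50.1%. With length and GC content corrected for, 20 of the 32 genes were higher and 2 lower. Of all 12518 tested genes 2095 were then higher and 1773 lower, against 1760 and 2083 after scaling alone. The part of expression level and transcript length in these differences was not tested further.

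**Figure D1:**
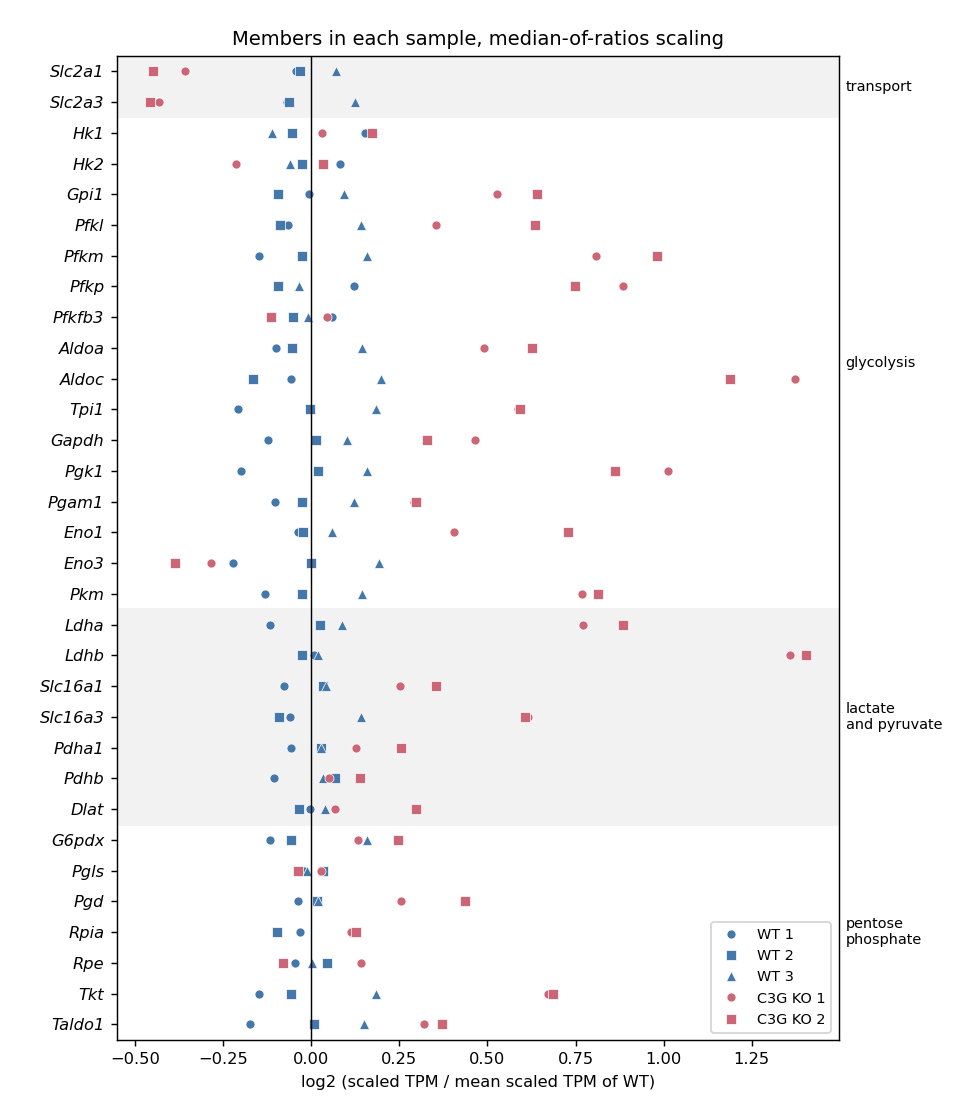
Scaled TPM of each gene in each sample, as the log2 ratio to the WT mean on the horizontal axis, with genes in pathway order on the vertical axis and marker shape showing the replicate. Both C3G KO samples lie right of all WT samples for 21 of the 32 genes and left of them for 3, and scaling sets this position relative to the median gene.

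Promoter sequences are shown for the carrier Slc2a1, which fell, and for Ldhb, Ldha, Pgk1 and Pfkp, which rose, because they hold unlike sets of short motifs. Each runs 5′ to 3′ on the strand of the gene, from 250 bases before to 50 bases after the start of the RefSeq transcript in GRCm38.p6. Capitals mark ACGTG on either strand, the core of the hypoxia response element.
Slc2a1 promoter, chr4:119108495-119108794, plus strand: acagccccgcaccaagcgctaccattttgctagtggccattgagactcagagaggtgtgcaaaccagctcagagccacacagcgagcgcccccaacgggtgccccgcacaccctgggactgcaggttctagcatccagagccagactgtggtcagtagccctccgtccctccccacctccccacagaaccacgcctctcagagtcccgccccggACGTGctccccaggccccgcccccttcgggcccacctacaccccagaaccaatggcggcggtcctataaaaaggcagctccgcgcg
Pfkp promoter, chr13:6648722-6649021, minus strand: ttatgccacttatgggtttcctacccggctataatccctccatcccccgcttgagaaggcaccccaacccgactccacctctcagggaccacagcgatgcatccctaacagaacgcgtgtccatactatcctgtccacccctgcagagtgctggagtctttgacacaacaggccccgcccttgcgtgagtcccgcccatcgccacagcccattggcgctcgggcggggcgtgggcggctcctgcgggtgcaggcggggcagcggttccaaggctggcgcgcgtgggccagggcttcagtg
Pgk1 promoter, chrX:106186850-106187149, plus strand: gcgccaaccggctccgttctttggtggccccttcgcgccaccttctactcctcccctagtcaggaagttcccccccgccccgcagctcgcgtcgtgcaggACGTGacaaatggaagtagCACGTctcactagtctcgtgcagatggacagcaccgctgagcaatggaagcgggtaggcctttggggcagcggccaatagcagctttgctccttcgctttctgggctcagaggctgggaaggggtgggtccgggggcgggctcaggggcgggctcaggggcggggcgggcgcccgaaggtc
Ldha promoter, chr7:46845554-46845853, plus strand: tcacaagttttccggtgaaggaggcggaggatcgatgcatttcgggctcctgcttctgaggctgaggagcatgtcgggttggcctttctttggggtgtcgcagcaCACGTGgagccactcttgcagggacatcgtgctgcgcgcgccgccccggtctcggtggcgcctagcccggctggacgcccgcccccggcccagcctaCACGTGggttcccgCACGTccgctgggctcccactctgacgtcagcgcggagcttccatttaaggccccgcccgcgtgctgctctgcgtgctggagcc
Ldhb promoter, chr6:142507908-142508207, minus strand: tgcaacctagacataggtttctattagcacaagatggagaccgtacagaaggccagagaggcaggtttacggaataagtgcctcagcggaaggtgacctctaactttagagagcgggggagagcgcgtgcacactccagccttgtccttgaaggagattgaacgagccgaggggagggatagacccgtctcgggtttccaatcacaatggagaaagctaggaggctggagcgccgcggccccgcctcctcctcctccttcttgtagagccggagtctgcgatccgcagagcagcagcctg
Slc2a1 holds ACGTG once, Pgk1 holds it 2 times and Ldha 5 times, while the windows of Ldhb and Pfkp hold none. The palindromic E-box CACGTG, which contains ACGTG on both strands and so counts 2 times in it, occurs in Ldha at 2 places. Promoters were given for 31 of the 32 genes, all but Slc2a3. ACGTG was in 14 of the 31 promoters, or 45.2%, in 19.7% of all 32544 promoters of the reference and in 27.0% of the 8782 promoters of tested genes. It was in 6 of the 16 promoters of genes that rose. The rest of the 14 belong to Slc2a1, which fell, and to Hk1, Hk2, Pfkfb3, Gapdh, Pgam1, Pdhb and G6pdx, which had no call. Of the other motifs, searched on both strands, CACGTG was in 3 of the 31 (7.17% of all promoters and 10.9% of those of tested genes). The GC box GGGCGG was in 23, or 74.2% (35.9% and 67.3%), and the CCAAT box, CCAAT, in 13, or 41.9% (37.4% and 39.8%). TATAAA was in 1, that of Slc2a1 (13.6% and 6.43%), the AP-1 site TGANTCA in 1, that of Aldoa (7.79% and 4.20%), and TGACNNNGC, the core of the antioxidant response element, in 5, or 16.1% (12.4% and 14.8%). Promoters of tested genes are the closer background, since all 32 genes were tested. A match describes these letters in this window and is not a measured binding site.

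Glucose enters ES cells mainly through facilitative carriers of the Slc2a family. Slc2a1 encodes GLUT1, the carrier of basal uptake, and Slc2a3 encodes GLUT3, a carrier of high affinity. Slc2a1 (chr4:119108711-119137983, plus strand) had 75.7, 76.4 and 82.0 scaled TPM in WT 1 to 3 and 60.9 and 57.2 scaled TPM in C3G KO 1 and 2. Slc2a3 (chr6:122727809-122801640, minus strand) had 163, 164 and 187 scaled TPM in WT and 127 and 125 scaled TPM in C3G KO. Both C3G KO samples lay below all WT samples for each carrier. Slc2a1 fell to 0.756 times its WT level (log2 fold change -0.40, standard error 0.078, adjusted p = 0.0131, limma), and Slc2a3 to 0.735 times (log2 fold change -0.44, standard error 0.096, adjusted p = 0.0186, limma). With length and GC content corrected for, the falls were smaller, at -0.27 (adjusted p = 0.0391, limma) and -0.33 (adjusted p = 0.0432, limma). With TPM as deposited the log2 fold changes were -1.08 and -1.13, or -0.54 and -0.58 relative to the median of all genes there. That both lie further from the median than after scaling comes only from the 1 added before the log, and is not a larger fall. TPM as deposited shift most genes down, so the same direction there is no further support. The calls are near the threshold. Without WT replicate 2 the adjusted p from limma was 0.0591 for Slc2a1 and 0.0643 for Slc2a3, without C3G KO replicate 2 it was 0.0632 and 0.0772, and without C3G KO replicate 1 that of Slc2a3 was 0.0653. With a replicate block the adjusted p was 0.0584 and 0.0780, although samples share only a number. The ratio of Slc2a1 to Slc2a3, which no scaling touches, was 0.464, 0.466 and 0.439 in WT and 0.479 and 0.458 in C3G KO. The groups overlapped, and the log2 difference of 0.039 had an exact permutation p of 0.6.

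Of 12 other glucose carriers on the list, 2 were expressed enough to be tested and neither passed the threshold. Hexokinases trap glucose by adding a phosphate. Hk2, the main hexokinase here, had 31.8, 29.6 and 28.9 scaled TPM in WT and 26.0 and 30.8 scaled TPM in C3G KO. The groups overlapped, and the log2 fold change was -0.09 (95% interval -0.32 to 0.14, adjusted p = 0.529, limma). It was -0.76 with TPM as deposited (adjusted p = 0.0137, limma), and after the length and GC correction 0.12. Hk1 was at 2.68 to 3.27 scaled TPM in all 5 samples, with a log2 fold change of 0.08 (95% interval -0.13 to 0.29) and of -0.43 with TPM as deposited. Summed over both enzymes, the hexokinase step overlapped between the groups (exact permutation p = 0.6). The ratio of Hk2 to Slc2a1 was 0.420, 0.387 and 0.352 in WT and 0.426 and 0.540 in C3G KO, so C3G KO 1 was just above WT 1.

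Gpi1 and the 3 subunits of phosphofructokinase rose after scaling, and none of them had a call with TPM as deposited. Gpi1, glucose phosphate isomerase, had 96.1, 90.4 and 103 scaled TPM in WT and 139 and 150 scaled TPM in C3G KO, a log2 fold change of 0.58 (adjusted p = 0.00632, limma) and of -0.11 with TPM as deposited. Phosphofructokinase commits the sugar to glycolysis and is built from liver, muscle and platelet subunits. Pfkp, the platelet subunit, had 34.0, 29.3 and 30.5 scaled TPM in WT and 57.8 and 52.5 scaled TPM in C3G KO. It rose 1.76-fold (log2 fold change 0.80, standard error 0.091, adjusted p = 0.00206, limma), and TPM as deposited gave 0.12. Pfkl, the liver subunit, had 31.6, 31.1 and 36.5 scaled TPM in WT and 42.2 and 51.3 scaled TPM in C3G KO. It rose by a log2 fold change of 0.48 (adjusted p = 0.0237, limma), while TPM as deposited gave -0.20. Leaving out WT replicate 1, WT replicate 2 or C3G KO replicate 2 ended this call, with an adjusted p of up to 0.101 (limma). Pfkm, the muscle subunit, was scarce, with 2.06 to 2.55 scaled TPM in WT and 3.99 and 4.5 scaled TPM in C3G KO, and rose by a log2 fold change of 0.68 (adjusted p = 0.00346, limma), which was 0.16 with TPM as deposited. The 3 subunits summed to 67.7, 62.7 and 69.5 scaled TPM in WT and 104 and 108 in C3G KO. Pfkfb3, which makes the fructose bisphosphate that activates phosphofructokinase, stayed at 4.73 to 5.34 scaled TPM, with a log2 fold change of -0.03 (95% interval -0.20 to 0.14) after scaling and of -0.61 (adjusted p = 0.0231, limma) with TPM as deposited.

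Carriers and enzymes can also be compared within a sample. The ratio of Gapdh to Slc2a1 was 11.6, 12.6 and 12.5 in WT and 21.7 and 21 in C3G KO, 1.74 times as high. A ratio of this kind does not depend on the scaling between samples, but the trend with transcript length given above can still enter it. Gapdh, at 1361 bases, is shorter than Slc2a1, at 2757 bases. With length and GC content corrected for, their log2 fold changes were 0.41 and -0.27. The groups did not overlap in the ratio, and its exact permutation p was 0.2, the smallest that the 10 splits of 3 and 2 samples allow (0.25 adjusted over 10 ratios).

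**Figure D2:**
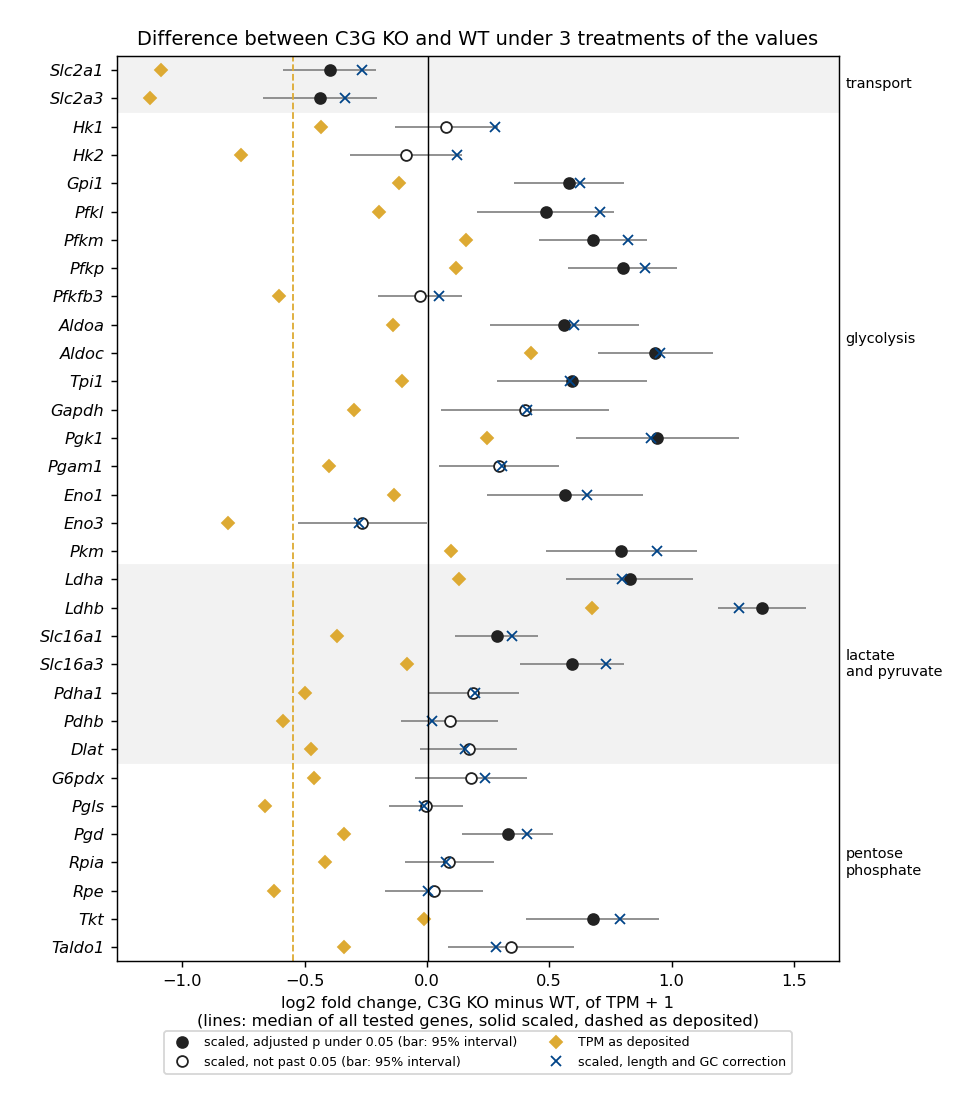
Log2 fold change of each gene between C3G KO and WT on the horizontal axis, with filled circles for an adjusted p under 0.05 from limma after scaling, open circles otherwise, bars for 95% intervals, diamonds for TPM as deposited and crosses for the length and GC correction. After scaling 16 genes lie above 0 and 2 below with a call, whereas TPM as deposited are shifted down with the median of all genes at -0.55 and turn the sign of 19 genes.

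Between aldolase and pyruvate kinase 6 of 9 genes rose after scaling, beside 14.1% of all tested genes. With TPM as deposited none rose and 1 fell, beside 1.45% and 56.8% of all tested genes. Most of the 9 genes had a WT mean above 100 TPM, a level at which genes outside the pathways were also higher more often, as given above. Aldolase splits the sugar into triose phosphates. Aldoa had 380, 393 and 450 scaled TPM in WT and 573 and 629 scaled TPM in C3G KO, a log2 fold change of 0.56 (adjusted p = 0.0199, limma) and of -0.14 with TPM as deposited. Leaving out any sample but WT replicate 3 ended this call, with an adjusted p of up to 0.0916 (limma). Aldoc, the isozyme known from brain, was near the filter and had 1.66, 1.54 and 1.98 scaled TPM in WT and 4.48 and 3.94 scaled TPM in C3G KO. It rose 2.43-fold in scaled TPM, with a log2 fold change of 0.93 on the scale of TPM + 1 (adjusted p = 0.00143, limma) and of 0.42 with TPM as deposited. Tpi1, which interconverts the trioses, had 101, 116 and 132 scaled TPM in WT and 174 and 175 scaled TPM in C3G KO, a log2 fold change of 0.59 (adjusted p = 0.0171, limma) and of -0.10 with TPM as deposited. That call was lost without WT replicate 2, C3G KO replicate 1 or C3G KO replicate 2, with an adjusted p of up to 0.0730 (limma).

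Gapdh, the dehydrogenase that yields NADH, was the most abundant of the 32 genes. It had 880, 966 and 1026 scaled TPM in WT and 1321 and 1202 scaled TPM in C3G KO. The groups did not overlap, but the log2 fold change of 0.40 (95% interval 0.06 to 0.74) did not pass the threshold (adjusted p = 0.0780, limma). It was -0.30 with TPM as deposited, -0.07 with quantile normalization and 0.41 (adjusted p = 0.0404, limma) after the length and GC correction. Pgk1 makes ATP in the next step. It had 220, 257 and 282 scaled TPM in WT and 511 and 460 scaled TPM in C3G KO. Both C3G KO samples were far above WT, and Pgk1 rose 1.92-fold (log2 fold change 0.94, standard error 0.14, adjusted p = 0.00464, limma), with 0.24 from TPM as deposited. Pgam1, phosphoglycerate mutase, had 181 to 211 scaled TPM in WT and 238 scaled TPM in both C3G KO samples, without passing the threshold (log2 fold change 0.30, 95% interval 0.05 to 0.54, adjusted p = 0.0711, limma, and -0.40 with TPM as deposited).

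Of the enolase isozymes, Eno1 rose after scaling and Eno3 had no call. Eno1, the ubiquitous form, had 354, 358 and 379 scaled TPM in WT and 481 and 602 scaled TPM in C3G KO, a log2 fold change of 0.57 (adjusted p = 0.0224, limma) and of -0.13 with TPM as deposited. The 2 C3G KO samples differed, and without WT replicate 1, WT replicate 2 or C3G KO replicate 2 the adjusted p was up to 0.0904 (limma). Eno1 also shares sequence with Eno1b and other copies at 95% identity or more, and these copies took 33.3% to 37.4% of the joint TPM, a share that does not separate the groups. Eno1b alone had a log2 fold change of 0.58 and adding all copies left the call of Eno1 as it was. Eno3, the muscle form, had 4.00, 4.67 and 5.33 scaled TPM in WT and 3.83 and 3.57 scaled TPM in C3G KO. Its log2 fold change was -0.26 (95% interval -0.53 to -0.00062, adjusted p = 0.113, limma) after scaling and -0.81 (adjusted p = 0.00211, limma) with TPM as deposited. The ratio of Eno3 to Eno1 was 0.0113, 0.0130 and 0.0141 in WT and 0.00797 and 0.00592 in C3G KO, with no overlap (log2 difference -0.89, exact permutation p = 0.2). Pkm, pyruvate kinase, had 425, 458 and 515 scaled TPM in WT and 794 and 820 scaled TPM in C3G KO. It rose 1.73-fold (log2 fold change 0.79, adjusted p = 0.00663, limma), while TPM as deposited gave 0.10. Its leading transcript, Pkm-201, took 64.4% of the gene's TPM in WT and 66.6% in C3G KO, and Pkm-202 took 26.0% and 25.7%.

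**Figure D3:**
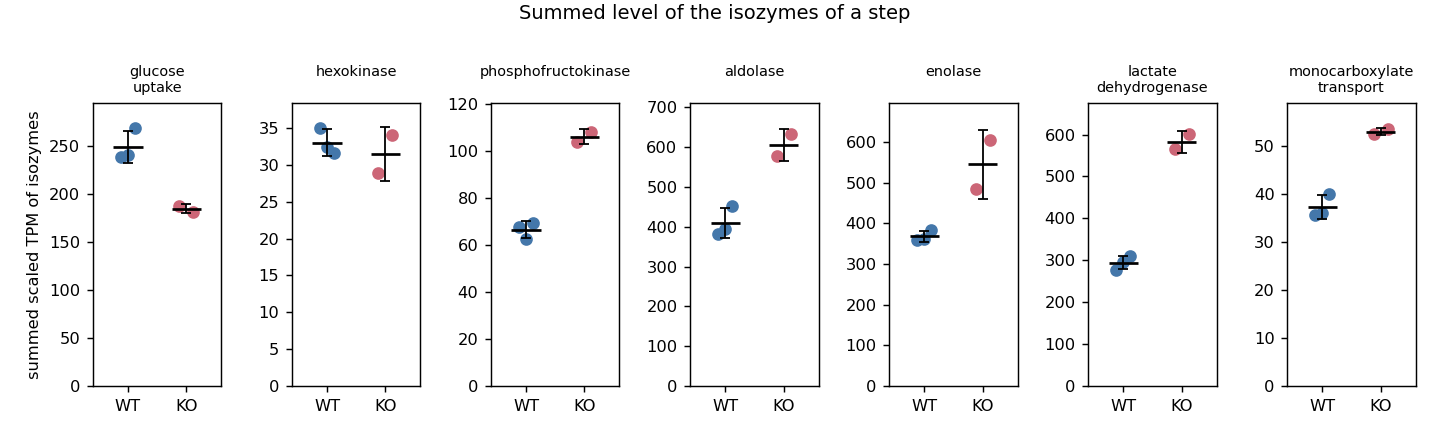
Summed scaled TPM of the isozymes of 7 steps, 1 panel for each step, with points for samples, a bar for the group mean and whiskers for the SD (WT n = 3, C3G KO n = 2), each vertical axis starting at 0. Uptake is lower in both C3G KO samples, hexokinase overlaps, and the other 5 steps are higher in both C3G KO samples after scaling.

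Lactate dehydrogenase held the largest rise of the 32 genes. The enzyme is built of LDHA subunits, which favour lactate formation, and LDHB subunits, which favour its oxidation. Ldhb (chr6:142490249-142507957, minus strand) had 72.0, 70.4 and 72.6 scaled TPM in WT and 184 and 189 scaled TPM in C3G KO. The WT samples lay close together and both C3G KO samples were far above them. Ldhb rose 2.61-fold (log2 fold change 1.37, standard error 0.073, adjusted p = 0.000219, limma). It was the only one of the 32 that also rose with TPM as deposited, from 96.1, 85.8 and 80.2 TPM in WT to 114 and 172 TPM in C3G KO (log2 fold change 0.68, adjusted p = 0.0311, limma), and it kept its call under all 18 alternatives. Ldha had 205, 227 and 237 scaled TPM in WT and 381 and 412 scaled TPM in C3G KO. It rose 1.78-fold (log2 fold change 0.83, standard error 0.11, adjusted p = 0.00319, limma), with 0.13 from TPM as deposited. The ratio of Ldhb to Ldha was 0.351, 0.310 and 0.307 in WT and 0.483 and 0.460 in C3G KO, 1.46 times as high, with no overlap (log2 difference 0.55, exact permutation p = 0.2). The windows printed above hold ACGTG 5 times for Ldha and not for Ldhb. The summed step was at 277, 297 and 309 scaled TPM in WT and 565 and 601 scaled TPM in C3G KO.

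Lactate leaves through monocarboxylate carriers. Slc16a3, which encodes MCT4, had 22.8, 22.4 and 26.2 scaled TPM in WT and 36.5 and 36.3 scaled TPM in C3G KO, a log2 fold change of 0.59 (adjusted p = 0.00482, limma) and of -0.08 with TPM as deposited. Slc16a1, which encodes MCT1, had 12.8, 13.8 and 13.9 scaled TPM in WT and 16.0 and 17.2 scaled TPM in C3G KO, a log2 fold change of 0.28 (adjusted p = 0.0272, limma) and of -0.37 with TPM as deposited. The call of Slc16a1 was lost when any sample but WT replicate 3 was left out, with an adjusted p of up to 0.107 (limma). The ratio of Slc16a3 to Slc16a1 was 1.79, 1.62 and 1.89 in WT and 2.27 and 2.11 in C3G KO, with no overlap (exact permutation p = 0.2).

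Pyruvate dehydrogenase, the entry to the mitochondrial route, did not pass the threshold in any of its 3 subunits. Pdha1, the catalytic alpha subunit, had 49.2 to 52.2 scaled TPM in WT and 55.9 and 61.1 scaled TPM in C3G KO (log2 fold change 0.19, 95% interval 0.0025 to 0.38, adjusted p = 0.11, limma). Pdhb, the beta subunit, overlapped between the groups (log2 fold change 0.09, 95% interval -0.10 to 0.29), and Dlat, the acetyltransferase, had 11.6 to 12.2 scaled TPM in WT and 12.5 and 14.6 scaled TPM in C3G KO (log2 fold change 0.17, 95% interval -0.03 to 0.37). These log2 fold changes were -0.50, -0.59 and -0.47 with TPM as deposited, and none had a call there either. Among 11 other tested genes of pyruvate and lactate handling, 5 were higher and none lower after scaling, beside 14.1% and 16.6% of all tested genes. With TPM as deposited none was higher and 5 were lower, beside 1.45% and 56.8%. The largest rise was that of Pdk1, a kinase that inhibits pyruvate dehydrogenase, with 26.4, 27.9 and 30.4 scaled TPM in WT and 38.6 and 41.8 scaled TPM in C3G KO (log2 fold change 0.50, adjusted p = 0.00861, limma, and -0.18 with TPM as deposited).

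**Figure D4:**
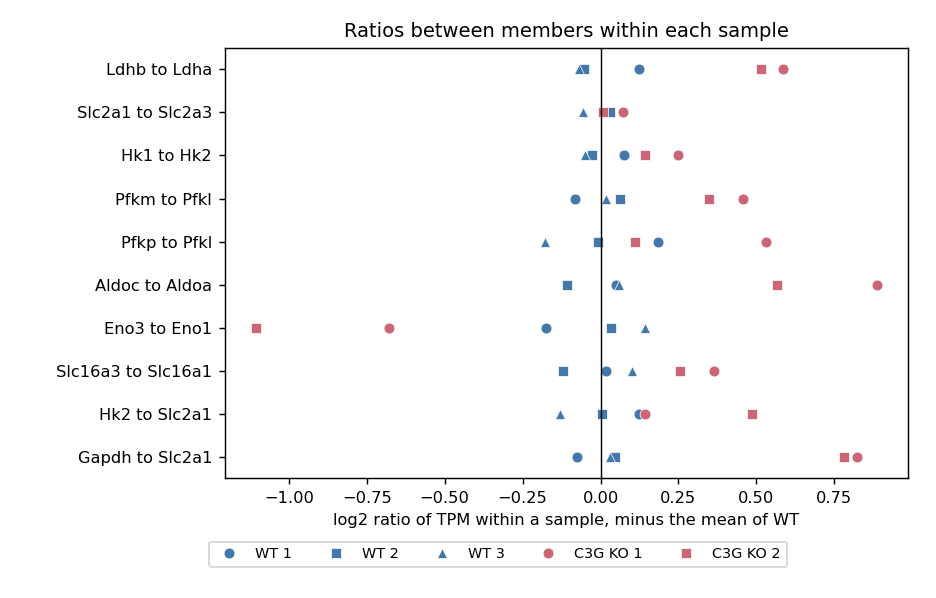
Ratios between 2 of the genes within each sample, as log2 values minus the WT mean on the horizontal axis, which do not depend on the scaling between samples. Ldhb to Ldha, Aldoc to Aldoa and Gapdh to Slc2a1 are higher and Eno3 to Eno1 is lower in both C3G KO samples, while Slc2a1 to Slc2a3 and Pfkp to Pfkl overlap between the groups.

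In the pentose phosphate pathway 2 of 7 genes rose after scaling, beside 14.1% of all tested genes, and none rose and 2 fell with TPM as deposited, where 56.8% of all genes were lower. Its oxidative branch makes NADPH. G6pdx, the first enzyme of the branch, had 10.9 to 13.2 scaled TPM in WT and 12.9 and 14 scaled TPM in C3G KO and overlapped between the groups (log2 fold change 0.18, 95% interval -0.05 to 0.41). Pgls, the lactonase, had 17.1 to 17.7 scaled TPM in WT and 17.6 and 16.9 scaled TPM in C3G KO (log2 fold change -0.0046, 95% interval -0.16 to 0.15). Pgd, the dehydrogenase that follows, had 20.4, 21.1 and 21.2 scaled TPM in WT and 24.9 and 28.2 scaled TPM in C3G KO. It rose by a log2 fold change of 0.33 (adjusted p = 0.0220, limma), which was -0.34 with TPM as deposited, and lost the call without WT replicate 1, WT replicate 2 or C3G KO replicate 2, with an adjusted p of up to 0.0833 (limma). In TPM as deposited the log2 fold changes of G6pdx and Pgls were -0.46 and -0.66, the latter with a call (adjusted p = 0.0251, limma).

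The non-oxidative branch links pentoses back to glycolysis. Tkt, transketolase, had 56.8, 60.5 and 71.5 scaled TPM in WT and 100.3 and 101 scaled TPM in C3G KO. It rose 1.6-fold (log2 fold change 0.68, standard error 0.11, adjusted p = 0.00721, limma), and TPM as deposited gave -0.01. Of its TPM in WT, 73.7% were on Tkt-209, a transcript that the annotation types as processed and not as protein-coding, and 73.9% in C3G KO. Taldo1, transaldolase, had 40.0, 45.4 and 50.1 scaled TPM in WT and 56.4 and 58.5 scaled TPM in C3G KO and was just past the threshold on the other side (log2 fold change 0.34, 95% interval 0.09 to 0.60, adjusted p = 0.0530, limma, and -0.34 with TPM as deposited). Without WT replicate 3 its adjusted p was 0.0318 (limma). Rpia and Rpe, the isomerase and epimerase of the pentose phosphates, overlapped between the groups, with log2 fold changes of 0.09 (95% interval -0.09 to 0.27) and 0.03 (95% interval -0.17 to 0.23) after scaling and of -0.42 and -0.62 with TPM as deposited. In Rpe, the share of the transcript Rpe-205, typed as subject to nonsense-mediated decay, was 27.4% in WT and 16.2% in C3G KO, and protein-coding transcripts alone gave a log2 fold change of 0.23 (adjusted p = 0.0355, limma). Of 4 other tested pentose phosphate genes 2 rose and 2 fell after scaling, beside 14.1% and 16.6% of all tested genes. TPM as deposited gave none higher and 2 lower, beside 1.45% and 56.8%. H6pd, the dehydrogenase of the endoplasmic reticulum, stood at 0.42 on the log2 scale after scaling. Prps2, a phosphoribosyl pyrophosphate synthetase, stood at -0.32 after scaling (-0.30 with length and GC content corrected for, adjusted p = 0.0601, limma).

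Neighbouring pathways were read from further gene lists, against the shares of all tested genes. These were 14.1% higher and 16.6% lower after scaling, and 1.45% and 56.8% with TPM as deposited. Shuttles that carry the reducing power of cytosolic NADH into mitochondria had 8 of 9 tested genes higher and none lower, with a median log2 fold change of 0.44. Slc25a13, a mitochondrial aspartate and glutamate carrier, showed the largest rise there, from 14, 14.4 and 14.6 scaled TPM in WT to 21.3 and 22.4 scaled TPM in C3G KO (log2 fold change 0.57, adjusted p = 0.00180, limma), although it was -0.09 with TPM as deposited, where none of the 9 had a call. Of 10 tested genes of other NADPH sources 4 rose after scaling, where TPM as deposited gave 3 lower, with cytosolic isocitrate dehydrogenase Idh1 at a log2 fold change of 0.83 (adjusted p = 0.00105, limma) and at 0.17 with TPM as deposited. In the TCA cycle 4 of 16 genes rose and 1 fell after scaling, beside 14.1% and 16.6% of all tested genes, and none rose and 5 fell with TPM as deposited, beside 1.45% and 56.8%. Idh3g, a subunit of mitochondrial isocitrate dehydrogenase, stood at 0.60 (-0.08 with TPM as deposited). Sucla2, a subunit of succinyl-CoA ligase, had 19.8, 19.8 and 18.1 scaled TPM in WT and 8.44 and 9.38 scaled TPM in C3G KO (log2 fold change -1.03, adjusted p = 0.000511, limma, and -1.67 with TPM as deposited). Sucla2 lies on chromosome 14, where 10 of its 11 tested neighbours within 2 Mb were also lower, with a median log2 fold change of -1.08. The 2 genes of the 32 on that chromosome, Pdhb and Tkt, lie elsewhere on it, with 2 of 12 and 3 of 34 tested neighbours lower.

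Lists further from glucose breakdown are read against the same shares of all tested genes. After scaling 14.1% were higher and 16.6% lower, and with TPM as deposited 1.45% and 56.8%. Other glycolytic isozymes had 1 of 6 tested genes higher, the ADP-dependent glucokinase Adpgk (log2 fold change 0.24, and -0.38 with TPM as deposited). Gluconeogenesis had 1 of 4 lower, the mitochondrial carboxykinase Pck2, with 4.25, 4.96 and 5.47 scaled TPM in WT and 2.47 and 1.48 scaled TPM in C3G KO (log2 fold change -1.0, adjusted p = 0.00673, limma, and -1.51 with TPM as deposited). Glycogen metabolism had 2 of 12 higher and 1 lower after scaling, with phosphoglucomutase Pgm1 at 0.39 and the kinase Gsk3b at -0.31 (-0.22 with length and GC content corrected for, adjusted p = 0.0643, limma), where TPM as deposited gave 8 lower. The hexosamine pathway had 2 of 6 higher and 1 lower after scaling and 3 lower with TPM as deposited, with Gfpt2, an enzyme of its entry step, at 0.42 (-0.19 with TPM as deposited) and the acetyltransferase Gnpnat1 at -0.58. Gnpnat1 is on chromosome 14 as well, among neighbours of which 16 of 19 were lower. Pck2 (chr14:55540266-55551242) lies between Gnpnat1 and Sucla2 on this chromosome, and its own neighbours were not counted.

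Of 19 tested regulators of glycolytic genes, 4 rose and 2 fell after scaling, beside 14.1% and 16.6% of all tested genes, and 1 rose and 10 fell with TPM as deposited, beside 1.45% and 56.8%. Egln3, a prolyl hydroxylase that marks HIF-alpha proteins for decay and is itself a known HIF target, had 4.57, 3.80 and 4.19 scaled TPM in WT and 11 and 11.2 scaled TPM in C3G KO. Both C3G KO samples were far above WT (log2 fold change 1.22, adjusted p = 0.000400, limma), and Egln3 was the regulator that also rose with TPM as deposited (0.62, adjusted p = 0.0240, limma). Myc, a transcription factor that drives many glycolytic genes, had 11.3, 11.4 and 10.2 scaled TPM in WT and 6.53 and 8.68 scaled TPM in C3G KO. Its log2 fold change was -0.48 (adjusted p = 0.0264, limma), and -1.10 with TPM as deposited, or -0.55 relative to the median of all genes there. The larger distance from that median again comes only from the 1 added before the log.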

How the data were processed

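Total RNA of the 3 WT and 2 C3G KO samples was sequenced as paired-end reads. Per the labels and the methods of the study, the reads were checked with FastQC 0.11.7 and aligned with STAR 2.5.1b to GRCm38, and RSEM 1.2.31 and bcl2fastq 2.20 are named in the submitters' processing notes with no role given. The authors deposited TPM for 142647 transcripts, 1 column per sample with the same total in every column, small RNAs included, and rounded to 2 decimals. A transcript's TPM depends on which other transcripts were annotated and on the small RNA share, and carries no read numbers.

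Transcripts were matched to GENCODE M21 (141524 found, 1123 not found), and the TPM of a symbol's transcripts were added up. Of the 55147 symbols, 113 hold more than 1 gene identifier, among them Aldoa, whose second identifier has at most 0.77 TPM. Symbols with at least 1 TPM in at least 2 samples were tested. Values were divided by median-of-ratios size factors (1.34, 1.22 and 1.10 for WT 1 to 3, 0.619 and 0.906 for C3G KO 1 and 2) and fitted as log2(TPM + 1) with limma 3.58.1 (R 4.3.3) with a mean-variance trend. Prior degrees of freedom were 3.11 after scaling and infinite for TPM as deposited, where p-values take no account of a gene's own spread. Ratios and summed steps were compared by the two-sided exact permutation test over the 5 samples (p of 0.2 at the smallest), adjusted over 10 ratios or 7 steps. Near-identical copies are transcripts of other genes with at least 95% identity over at least 150 aligned bases. Promoters are those of RefSeq, GRCm38.p6. The length and GC correction subtracted a smooth trend (span 0.5) from each sample. The scripts were tested on simulated data. Python 3.11.15, pandas 2.3.3, scipy 1.17.1 and matplotlib 3.10.9 were used.

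Same-numbered samples of the groups share only the replicate number of their titles, and the library name of C3G KO 2 holds another number. The correlation of their deviations from the group means was -0.18 for pair 1 and 0.18 for pair 2. For WT 3 it was 0.33 with C3G KO 1 and -0.33 with C3G KO 2. Deviations of the 2 C3G KO samples mirror each other, so these values are not independent.

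The genes and lists were chosen with earlier results of these data known. Genes named are the 32 members, Rapgef1, the largest rise and fall past the threshold in each other list, and member transcripts with a mean of at least 5 TPM. Genes of cell type marker lists and Eno1b are also named, the latter chosen after its values were seen. Alternatives were TPM as deposited, scaling to protein-coding TPM, quantile normalization, pseudocounts of 0.1 and 5, no filter and a filter of 5 TPM, no trend, protein-coding transcripts only, the length and GC correction, a replicate block with and without it, near-identical copies added, and each sample left out in turn.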

Additional observations from a re-analysis of the deposited data

How the results depend on the processing

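The scaling between samples decides most directions. With TPM as deposited all genes gave 181 higher and 7109 lower calls, against 1760 and 2083 after scaling, and the 32 genes gave 1 higher and 7 lower, against 16 and 2, with a median 0.21 above that of all genes, against 0.33. The distance changed only through the 1 added before the log, as scaling divides all genes of a sample by the same factor. The sign then turned for Hk1 (-0.43), Gpi1 (-0.11), Pfkl (-0.20), Aldoa (-0.14), Tpi1 (-0.10), Gapdh (-0.30), Pgam1 (-0.40), Eno1 (-0.13), Slc16a1 (-0.37), Slc16a3 (-0.082), Pdha1 (-0.50), Pdhb (-0.59), Dlat (-0.47), G6pdx (-0.46), Pgd (-0.34), Rpia (-0.42), Rpe (-0.62), Tkt (-0.013) and Taldo1 (-0.34), with the median of all genes at -0.55. Scaling to protein-coding TPM left this median at -0.17, gave 707 higher and 3732 lower genes, 11 and 3 of the 32, and turned the sign of Hk1 (-0.088), Pdha1 (-0.030), Pdhb (-0.12), Dlat (-0.036), G6pdx (-0.026), Rpia (-0.074) and Rpe (-0.18). Quantile normalization gave 10 higher of the 32, with a median 0.15 above all genes, while all genes gave 1606 higher and 1832 lower. It turned Pfkfb3 (0.020), Gapdh (-0.069), Pgam1 (-0.13), Pdhb (-0.046) and Rpe (-0.023). A filter of 5 TPM left 1145 lower genes in all and 28 of the 32 tested. Protein-coding transcripts alone turned Pgls (0.0096). The length and GC correction gave 2095 higher and 1773 lower genes, 20 and 2 of the 32, and turned Hk2 (0.12) and Pfkfb3 (0.048). Slc2a1, Slc2a3, Pfkm, Pfkp, Aldoc, Pgk1, Eno3, Pkm, Ldha and Ldhb kept their sign under every alternative that gave them a value. For Slc2a1, Slc2a3 and Eno3, which were lower after scaling, TPM as deposited could hardly turn the sign, as they shift most genes down. The cause of the other changes was not tested.

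With a replicate block 15 of the 32 genes were higher and 0 lower (limma), as Slc2a1, Slc2a3, Eno1 and Slc16a1 lost their calls and Taldo1 gained one, and all genes gave 1489 higher and 1816 lower calls. With the replicate block and the length and GC correction 18 were higher and 0 lower, and all genes gave 1285 higher and 1338 lower. The sign turned there for Hk2 (0.11), Pfkfb3 (0.045) and Pgls (0.0043). Samples share only a number, so the numbers do not pair them. With each sample left out in turn the 32 genes gave 10 to 17 higher and 0 to 3 lower, with a median 0.28 to 0.39 above all genes, and all genes gave 891 to 1536 higher and 1338 to 1845 lower. The lowest counts of all genes were without WT replicate 2, and the 10 higher and 0 lower of the 32 occurred without WT replicate 2 and without C3G KO replicate 2. Values that turned then ranged from -0.20 to 0.035 for Hk2, -0.096 to 0.040 for Pfkfb3, -0.036 to 0.029 for Pgls and -0.074 to 0.14 for Rpe. Without a C3G KO sample the lone sample left is assumed to vary like the WT samples. Pseudocounts of 0.1 and 5, near-identical copies added and no trend turned no sign. No depth is known, so its limits cannot be given.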

Other observations

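Of the 12 ES cell markers, 3 were higher and 1 was lower after scaling, beside 14.1% and 16.6% of all tested genes. With TPM as deposited none was higher and 1 lower, beside 1.45% and 56.8% of all tested genes. The marker counts below are read against the same shares. Dppa3, a maternal factor that marks naive cells, had 2.59, 2.68 and 2.57 scaled TPM in WT and 5.46 and 5.58 scaled TPM in C3G KO (log2 fold change 0.85, adjusted p = 0.000460, limma, and 0.30 with TPM as deposited). Klf4, a factor of the naive state, had a log2 fold change of -0.51 (adjusted p = 0.0348, limma, and -1.13 with TPM as deposited). With length and GC content corrected for it was -0.35 (adjusted p = 0.0860, limma), and no ES cell marker was lower there. The study reported the opposite direction for its C3G null cells, with Klf4 transcripts higher by qPCR and KLF4 protein higher by western blot. All 3 tested fibroblast markers were lower, with Col1a1, a collagen, at 1.25, 1.04 and 0.951 scaled TPM in WT and 0.0485 and 0.0883 scaled TPM in C3G KO. Of 4 tested primitive endoderm markers 2 rose and 1 fell, with the endocytic receptor Cubn at a log2 fold change of 1.31 (0.87 with TPM as deposited) and the matrix protein Sparc at -0.76 (-1.43 with TPM as deposited). Of 4 tested trophectoderm markers 3 fell, with the keratin Krt7 at 3.36, 3.18 and 3.46 scaled TPM in WT and 0.776 and 0.397 scaled TPM in C3G KO. Col1a1 and Krt7 reached 1 TPM in WT samples only, and Cubn reached it in both C3G KO samples and in WT 1. Such genes passed the filter through the group where they were higher, which favours that direction in these counts.

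Slc2a3 lies beside a group of pluripotency genes on chromosome 6. Nanog, 13.2 kb away, had a log2 fold change of 0.29 (adjusted p = 0.0713, limma) and Dppa3, 97.5 kb away, rose as given above, while Foxj2, 18.3 kb away on the other side, fell (-0.42, adjusted p = 0.0141, limma). Gdf3 stood at 0.15, Necap1 at -0.03 and Apobec1 at -0.39 (adjusted p = 0.0646, limma). With TPM as deposited these 6 genes had log2 fold changes of -0.39 for Nanog, 0.30 for Dppa3, -0.72 for Foxj2, -0.51 for Gdf3, -0.67 for Necap1 and -0.72 for Apobec1. These neighbours were chosen by position.

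Slc2a1-204, typed as subject to nonsense-mediated decay, took 46.7% of the TPM of Slc2a1 in WT and 45.2% in C3G KO, a like share in both groups. Some other transcripts varied more than their gene. Gapdh-212 had 121, 120 and 117 TPM in WT and 99.2 TPM in C3G KO 1 but 16.5 TPM in C3G KO 2. ENSMUST00000150175, a short transcript of Eno1, had 48.3, 28.5 and 14.5 TPM in WT, 1.24 TPM in C3G KO 1 and 53.8 TPM in C3G KO 2. Such values come from the deposited estimates per transcript, and their error is unknown. Gapdh shares near-identical sequence with 93 other genes, which took 2.33% to 2.61% of the joint TPM, so most of the estimate lay on the gene itself. For Pgk1 the copies took 6.68% to 7.28% and for Pdhb 6.19% to 8.08%. For Pfkm the only such transcript was that of Gm26513, typed as antisense, which overlaps the Pfkm locus. It took 14.9%, 9.60% and 11.4% in WT 1 to 3 and 7.49% and 6.21% in C3G KO 1 and 2, so the groups did not overlap.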
